A study of Mus musculus with 24 samples.

Results

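The Frizzled receptor genes Fzd1 to Fzd10 were taken by name from the GENCODE M1 annotation of the mouse genome build mm9 (NCBIM37). All 10 were found among 37310 annotated genes, and all 10 lie on autosomes. Their promoters and gene bodies were read in 8 peak lists of the histone marks H3K4me3 and H3K27me3, and the same calls at 21418 autosomal protein-coding genes served as background. Fzd10 also names a pseudogene in this annotation, and the protein-coding entry (ENSMUSG00000081683.3) was used.

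Frizzled proteins are membrane receptors that bind Wnt ligands through a cysteine-rich extracellular domain. With the co-receptors LRP5 or LRP6 they pass the signal to Dishevelled and stabilise beta-catenin. Some members also act with planar polarity proteins, without beta-catenin. In the fetal gonad, Wnt4 and Rspo1 promote the ovarian fate through stabilised beta-catenin, and the testis pathway opposes this. H3K4me3 is a mark of active or poised promoters, and H3K27me3 is the repressive mark laid down by the Polycomb complex PRC2. A promoter that carries both is called bivalent.

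The study asked how these marks are arranged before and after sex determination in the supporting cells of the mouse gonad, on a C57BL/6 x CD1 strain background. XY and XX progenitor cells were sorted at embryonic stage E10.5 from SF1-eGFP gonads, in which the reporter marks the somatic cells. Sertoli cells were sorted at E13.5 from male Sox9-CFP gonads, and pregranulosa cells from female gonads with the TESM-CFP reporter, which is driven by a mutant Sox9 enhancer. The labels call the last group granulosa cells, and cells of pooled gonads went into each immunoprecipitation. H3, H3K4me3 and H3K27me3 were immunoprecipitated in 2 replicates for each of the 4 populations, which gave 24 samples, with H3 as the input and Drosophila chromatin added as carrier.

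The series description states that the processed data come from both replicates, and the headers of 6 lists name joined replicates, whereas the study's methods describe calls per replicate. The lists were read as pooled, so no spread between replicates can be computed and no test between populations was possible. The lists give the positions of calls over H3 and no level of enrichment. Tags per list ranged from 10162534 to 49254553 for H3K4me3 and from 6470151 to 44446456 for H3K27me3 in the 6 lists with a header, with the XY progenitor lists the shallowest for both marks. Depth is unknown for pregranulosa cells, whose lists have no header. The pregranulosa H3K27me3 list holds no overlapping peaks, with 12609 peaks of a median 8910 bp as deposited, against 5001 bp in the other 3 lists, so its peaks appear to have been joined before deposit. H3K27me3 lay over 4 of 5 Sertoli markers in each progenitor list, 0 in Sertoli cells and 5 in pregranulosa cells. Over 5 pregranulosa markers it was called in 5, 5, 5 and 2 in XY progenitor, XX progenitor, Sertoli and pregranulosa cells. The defining pregranulosa marker Foxl2 had H3K27me3 over its whole window in the pregranulosa list. The study describes its locus as dense in this mark and reports a loss over the TSS and gene body in these cells. According to the study, a wide promoter window does not show that loss. Of 4 germ cell markers, Ddx4 had neither mark in any list, and H3K4me3 was called over 1, 2, 3 and 2 of the 4 in the same order. For 5 progenitor markers the H3K27me3 counts were 5, 5, 2 and 0. H3K4me3 was called at 1, 1, 1 and 2 of 4 endothelial markers, 1, 1, 1 and 2 of 3 blood markers and 2, 3, 2 and 2 of 3 steroidogenic markers, and all 3 mesonephric markers had both marks in every list.

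Promoters were compared as windows of 2 kb on either side of the transcription start site (TSS). The 250 bases upstream of the TSS are given for 5 members with different H3K27me3 calls, read 5′ to 3′ on the strand of the gene from mm9. The calls were not made from these bases, and a relation between the bases and the calls was not tested. Fzd4 and Fzd7 had the mark at E13.5 and not at E10.5. Fzd5 and Fzd9 lacked it in Sertoli cells, and Fzd10 carried it in all 4 populations. Capitals mark matches to the GC box GGGCGG and to the CCAAT box, each on either strand, so that CCGCCC and ATTGG are their reverse complements. Matches to the GC box can overlap each other.
Fzd4, chr7:96552626-96552875, plus strand: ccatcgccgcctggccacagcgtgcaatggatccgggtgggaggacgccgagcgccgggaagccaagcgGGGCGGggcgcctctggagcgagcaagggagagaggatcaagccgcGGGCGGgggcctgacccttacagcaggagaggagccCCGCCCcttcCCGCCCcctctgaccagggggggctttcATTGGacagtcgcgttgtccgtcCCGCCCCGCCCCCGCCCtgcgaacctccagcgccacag
Fzd7, chr1:59538741-59538990, plus strand: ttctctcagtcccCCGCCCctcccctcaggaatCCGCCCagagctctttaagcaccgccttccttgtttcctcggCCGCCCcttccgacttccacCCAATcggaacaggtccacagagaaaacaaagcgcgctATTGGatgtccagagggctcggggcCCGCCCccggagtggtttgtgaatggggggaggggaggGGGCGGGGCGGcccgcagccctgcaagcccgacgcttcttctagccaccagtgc
Fzd5, chr1:64784325-64784574, minus strand: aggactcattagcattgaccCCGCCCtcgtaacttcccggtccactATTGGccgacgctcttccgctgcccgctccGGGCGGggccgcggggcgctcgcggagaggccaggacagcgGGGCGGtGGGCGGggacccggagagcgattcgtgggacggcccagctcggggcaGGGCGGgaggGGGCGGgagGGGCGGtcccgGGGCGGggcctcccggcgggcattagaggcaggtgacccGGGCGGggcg
Fzd9, chr5:135727101-135727350, minus strand: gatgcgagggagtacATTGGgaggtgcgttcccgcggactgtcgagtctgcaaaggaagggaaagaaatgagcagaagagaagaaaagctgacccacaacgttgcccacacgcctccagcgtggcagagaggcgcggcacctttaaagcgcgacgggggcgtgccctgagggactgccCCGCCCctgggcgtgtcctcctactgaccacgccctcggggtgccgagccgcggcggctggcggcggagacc
Fzd10, chr5:129106469-129106718, plus strand: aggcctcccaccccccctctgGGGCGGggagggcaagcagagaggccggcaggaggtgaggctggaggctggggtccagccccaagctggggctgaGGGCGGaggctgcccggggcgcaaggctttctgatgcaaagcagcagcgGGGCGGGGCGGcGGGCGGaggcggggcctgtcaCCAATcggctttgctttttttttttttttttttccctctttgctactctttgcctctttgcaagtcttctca

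The GC box, a binding motif of SP1-type factors, was present in 6 of 9 Frizzled sequences of this length, Fzd2 left out, and in 39.8% of 21413 background sequences. Matches numbered 9 in Fzd5, 7 in Fzd4, 6 in Fzd7, 5 in Fzd10, 2 in Fzd6 and 1 in Fzd9. The CCAAT box was present in 5 of the 9 and in 34.7% of the background, with 2 matches in Fzd7. Neither motif occurred in these bases of Fzd1, Fzd3 or Fzd8, and the 3 genes had 3 different H3K27me3 patterns. Fzd4 and Fzd7, which shared a pattern, both held GC boxes and CCAAT boxes, and so did Fzd5, Fzd9 and Fzd10. A match is a match of letters and not evidence of a bound factor.

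The whole windows were rich in CpG. The CpG ratio, observed over expected from base composition, was 0.60 to 0.76 in the members with a median of 0.70, against a background median of 0.37. All 10 lay above that median, and between 87.6% (Fzd6) and 97.7% (Fzd1 and Fzd7) of background windows had a lower ratio. GC content ranged from 46.7% in Fzd6 to 60.7% in Fzd10, with a median of 57.2% against 48.1% in the background. The coding sequence lay in 1 exon in 7 of 10 members and in 17.0% of background genes. The exceptions were Fzd4 with 2 coding exons, and Fzd3 and Fzd6 with 6 each.

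H3K4me3 was called at all 10 Frizzled promoters in every population. The background shares were 64.8% in XY progenitor, 66.7% in XX progenitor, 65.5% in Sertoli and 67.0% in pregranulosa cells, and 62.5% of background promoters had the mark in all 4 populations. The members did not differ from each other in this call, and the TSS itself lay inside an H3K4me3 region in all of them. They did differ in H3K27me3.

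H3K27me3 was called at 7 of 10 Frizzled promoters in the XY and 5 in the XX progenitors, and at 6 in Sertoli and 7 in pregranulosa cells. The background shares were 23.6%, 22.8%, 24.2% and 22.1% in that order (exact 95% binomial interval of the first, 23.1% to 24.2%, which covers counting error only). Since every member also had H3K4me3, the same counts apply to promoters with both marks, for which the background shares were 20.9%, 21.4%, 19.2% and 19.6%. Among the 13381 background genes with H3K4me3 in all 4 populations, as at the members, H3K27me3 was called in 32.1%, 31.6%, 29.4% and 28.8%. The member counts stood above both backgrounds in every population.

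**Figure D1:**
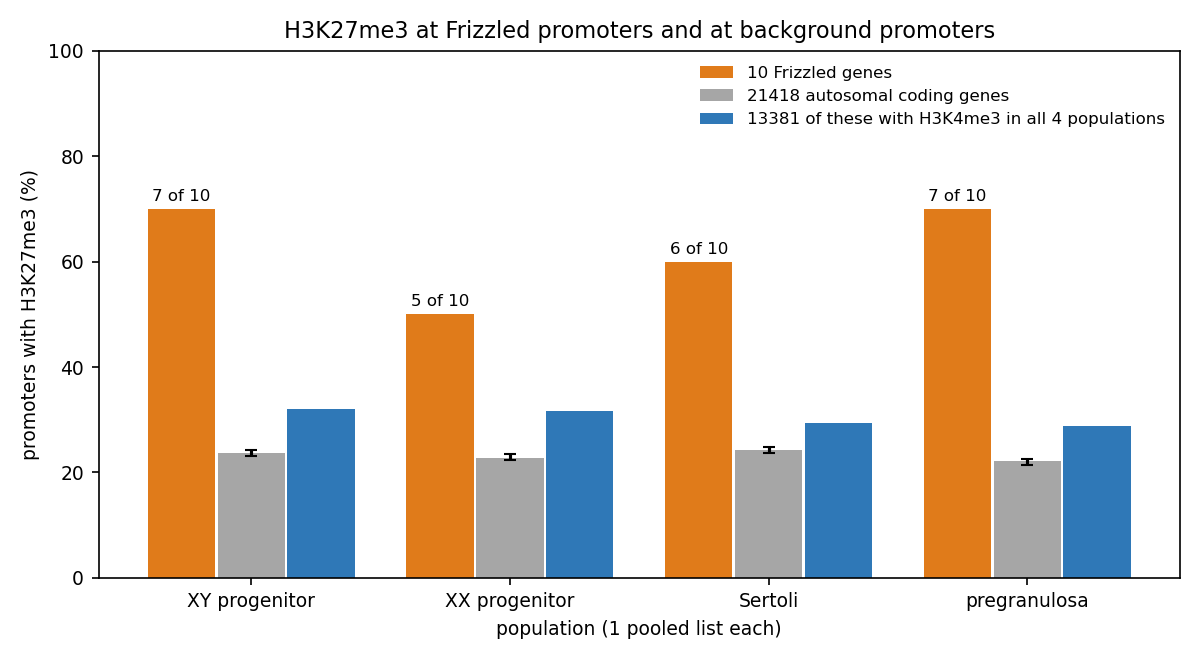
Share of promoters with H3K27me3 (y axis, percent) in each population (x axis) for the 10 Frizzled genes, for 21418 autosomal coding genes with exact 95% binomial intervals as error bars, and for the 13381 of these with H3K4me3 in all 4 populations. The Frizzled bars stand at 7, 5, 6 and 7 of 10, above both background bars in each population.

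Each of the 10 promoters had H3K27me3 in at least 1 population, which held for 31.2% of the background. Only Fzd6 and Fzd10 had it in all 4, against 16.3% of the background. Between the progenitors, Fzd1 and Fzd8 had it in XY and not in XX cells (background 2.33%), and 0 members had it in XX and not in XY cells (1.55%). These 2 calls came from the shallower list, with 6470151 tags against 33185400, and the part of depth in them was not tested. From XY progenitor to Sertoli cells, Fzd3, Fzd5, Fzd8 and Fzd9 had the mark in the former and not in the latter (4 of 10, background 5.29%). Of promoters with the mark in XY progenitor cells, this was 4 of 7 members and 1133 of 5060 background promoters. Fzd2, Fzd4 and Fzd7 had it in Sertoli and not in XY progenitor cells (3 of 10, background 5.87%). On the XX side, Fzd3 had it in progenitor and not in pregranulosa cells (1 of 10, background 4.22%), while Fzd1, Fzd4 and Fzd7 had it in pregranulosa and not in progenitor cells (3 of 10, background 3.42%). Of promoters with the mark in XX progenitor cells, 1 of 5 members and 903 of 4894 background promoters lacked it in pregranulosa cells. At E13.5, Fzd2 had it in Sertoli and not in pregranulosa cells (1 of 10, background 5.11%), and Fzd5 and Fzd9 in pregranulosa and not in Sertoli cells (2 of 10, background 2.96%). Of promoters marked in Sertoli cells, 1 of 6 members and 1094 of 5184 background promoters lacked the mark in pregranulosa cells. Of those marked in pregranulosa cells, 2 of 7 and 633 of 4723 lacked it in Sertoli cells. The percentages are of all 21418 background genes, a smaller share of which than of the members carried the mark in every list.

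**Figure D2:**
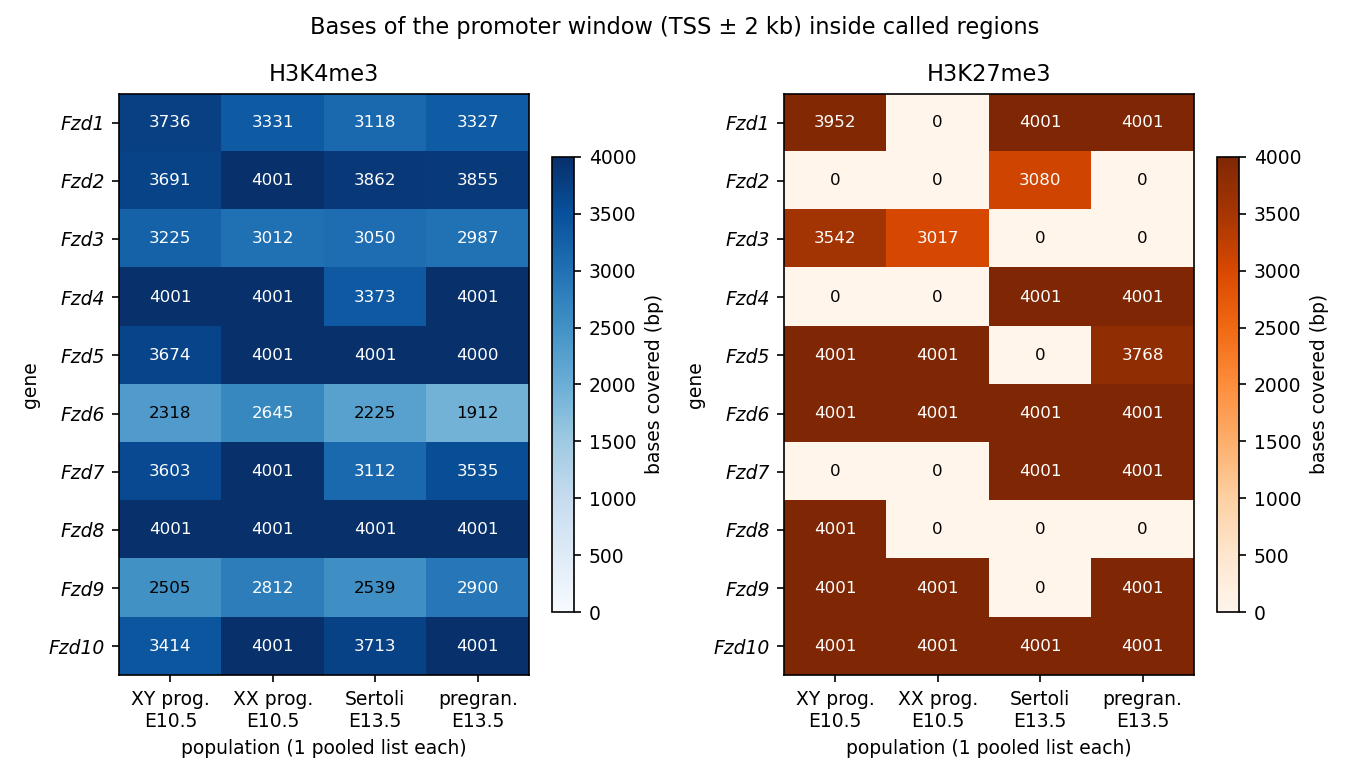
Bases of the promoter window covered by called regions (colour and printed number, bp) for each Frizzled gene (rows) in each population (columns), with H3K4me3 on the left and H3K27me3 on the right. H3K4me3 covers part or all of every window, with 1912 bp at the least, whereas H3K27me3 covers either 0 or at least 3017 bp.

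The close relatives Fzd1, Fzd2 and Fzd7 form one subfamily, whose members overlap in function in tissues such as the palate and heart. H3K27me3 was called at 1 of the 3 in XY progenitor cells, 0 in XX progenitor, 3 in Sertoli and 2 in pregranulosa cells. Fzd7 (chr1:59538991-59543791, plus strand) had 0 bp of its window under H3K27me3 in both progenitor lists and the whole window in both E13.5 lists. The Sertoli call was 1 listed peak of 5001 bp. In pregranulosa cells the region was 27159 bp wide, reached 19402 bp upstream of the TSS, and was wider than 88.0% of those over marked background promoters. This difference in width rests on how peaks are joined: with peaks within 5 kb joined, the Sertoli region was 36286 bp wide and the pregranulosa region remained at 27159 bp. It covered 100% of the gene body, against 43.3% in Sertoli cells. In XY progenitor cells a region lay 3444 bp from the window, and in XX progenitor cells the nearest was 106376 bp away.

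Over the TSS of Fzd7 the H3K4me3 region was 8257 bp wide in XY progenitor, 9205 bp in XX progenitor, 5190 bp in Sertoli and 5880 bp in pregranulosa cells. Both E13.5 regions were thus narrower than both E10.5 regions, with a ratio of 0.63 for Sertoli over XY progenitor and 0.64 for pregranulosa over XX progenitor cells. The share of background promoters for which this holds was not computed. The size of the difference rests in part on how peaks are joined. With peaks within 1 kb joined, the pregranulosa ratio was 0.85, and within 5 kb the Sertoli ratio was 0.88. The pattern of Fzd7 across all 8 lists, which Fzd4 shares, was found at 208 background genes (0.971%).

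Fzd2 (chr11:102465745-102469372, plus strand) was marked by H3K27me3 in Sertoli cells and in no other list. There 3080 bp of the window and 100% of the gene body were covered by a region of 12907 bp, joined from 7 listed peaks and reaching 11827 bp downstream of the TSS. In XY progenitor, XX progenitor and pregranulosa cells the nearest region was 54606, 55806 and 54046 bp from the window. H3K4me3 covered 100% of the Fzd2 gene body in all 4 populations, and its region was widest in XX progenitor cells, at 10621 bp, against 6194, 5689 and 6141 bp in XY progenitor, Sertoli and pregranulosa cells. This pattern was shared by 295 background genes (1.38%).

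Fzd1 (chr5:4753842-4758216, minus strand, a single exon) had H3K27me3 over 3952 bp of its window in the XY and 0 bp in the XX progenitors, and over the whole window in Sertoli and pregranulosa cells. The XY progenitor region was 1 listed peak of 5001 bp that ended 1951 bp downstream of the TSS. In Sertoli and pregranulosa cells the regions reached 4018 and 4917 bp downstream. Gene body cover followed as 44.6%, 0%, 91.9% and 100%. In XX progenitor cells the nearest region was 730027 bp from the window. In all, 57 background genes (0.266%) had the same pattern in all 8 lists, the fewest for any member.

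Fzd1 was one of the genes for which the study designed ChIP-qPCR primers. The study reports ChIP-qPCR of the Polycomb protein CBX2 at Fzd1 in fetal XY gonads and adult testes, and found no binding. Here only the position of the primer pair was used, and it was placed on mm9 by exact match.
Fzd1 forward primer, chr5:4755427-4755448, plus strand: ACACGCACATACACATACACCT
Fzd1 reverse primer, chr5:4755538-4755555, minus strand: TTCCTCGCCAGCCACTGA
Each matched once, and together they bound 129 bp that start 2661 bp and end 2789 bp downstream of the TSS. The annotation places these bases beyond the coding sequence, in the 3′ part of the single exon. They lie outside the promoter window. H3K4me3 regions covered all 129 bp in each of the 4 populations. H3K27me3 covered all 129 bp in Sertoli and pregranulosa cells and 0 bp in both progenitors. In XY progenitor cells the promoter was thus called and the amplicon was not. That call was 1 listed peak of 5001 bp ending 1951 bp downstream of the TSS, too coarse an edge to tell promoter and amplicon apart.

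Fzd5 and Fzd8, a closely related pair with shared roles in eye development, had H3K27me3 at 2, 1, 0 and 1 of 2 promoters in XY progenitor, XX progenitor, Sertoli and pregranulosa cells. Fzd5 (chr1:64777134-64784324, minus strand) had it over the whole window in both progenitors, 0 bp in Sertoli cells and 3768 bp in pregranulosa cells. The regions were 10247, 11837 and 7440 bp wide where present. Gene body cover was 90.6% in XY progenitor, 100% in XX progenitor, 0% in Sertoli and 78.9% in pregranulosa cells. In Sertoli cells the nearest region lay 5654 bp from the window, so a call was close to the gene but not on it.

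H3K4me3 at Fzd5 differed in the other direction. Its region over the TSS spanned 3642 bp in the XY progenitor and 7401 bp in the Sertoli list, a ratio of 2.03, against 6012 and 6814 bp in XX progenitor and pregranulosa cells. In the XY progenitor list, a second H3K4me3 region of 2960 bp began 1969 bp downstream of the TSS, and in the other 3 lists a single region ran across the gap between them. With peaks within 1 kb joined, the ratio at Fzd5 was 1.08, so the difference in width rests on that gap. Gene body cover by H3K4me3 was 65.4%, 75.3%, 73.8% and 67.0%, a narrower range than the widths give.

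Fzd8, a single-exon gene on chromosome 18, had H3K27me3 in XY progenitor cells alone. The region there was 8814 bp wide, joined from 2 listed peaks, and covered the whole window and 100% of the gene body. In XX progenitor, Sertoli and pregranulosa cells the nearest regions were 835579, 1503860 and 1575583 bp from the window. Of all members, Fzd8 was thus the most remote from H3K27me3 where it lacked it. H3K4me3 covered the whole window in all 4 lists, with widths of 6763, 7458, 6147 and 6684 bp. Its pattern across the lists was shared by 207 background genes (0.966%).

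Fzd4, Fzd9 and Fzd10 make up another subfamily and had H3K27me3 at 2, 2, 2 and 3 of 3 promoters in XY progenitor, XX progenitor, Sertoli and pregranulosa cells. Fzd4 is the receptor for the non-Wnt ligand Norrin, and female mice without it are infertile. At Fzd4 (chr7:96552876-96558620, plus strand) H3K27me3 covered 0 bp of the window in both progenitors and the whole window in both E13.5 populations. The region was 9405 bp wide in Sertoli cells and 1 listed peak of 5001 bp in pregranulosa cells, and gene body cover was 89.7% and 46.9%. This order rests on how peaks are joined. With peaks within 5 kb joined, the pregranulosa region was 16088 bp wide and covered 100% of the gene body. The Sertoli region stayed at 9405 bp and 89.7%. The nearest regions in XY and XX progenitor cells were 91935 and 106753 bp away.

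Fzd4 also had the smallest ratios of H3K4me3 width between stages in the family. Its H3K4me3 region measured 7706 bp in XY progenitor and 8078 bp in XX progenitor cells, and 3373 bp in Sertoli and 4078 bp in pregranulosa cells, which gave 0.44 and 0.50. Cover of the gene body was 93.4% and 97.4% at E10.5, and 30.3% and 35.1% at E13.5. In each measure both E13.5 values lay below both E10.5 values, and the share of background promoters for which this holds was not computed. The TSS of Tmem135, transcribed away from Fzd4, lies 144 bp from that of Fzd4, so the promoter is shared and the marks cannot be assigned to one gene. Tmem135 carried H3K27me3 in the same 2 lists, and Fzd4 was the only member whose H3K27me3 regions took in the TSS of another coding gene.

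Fzd9 (chr5:135724808-135727100, minus strand) had H3K27me3 over the whole window and 100% of its gene body in both progenitors and in pregranulosa cells, and 0 bp in Sertoli cells. The regions were 6258, 7789 and 6328 bp wide, and in Sertoli cells the nearest lay 19692 bp from the window. As at Fzd5, the H3K4me3 region was wider in Sertoli cells, at 5055 bp, than in XY progenitor cells, at 2505 bp, a ratio of 2.02. It was 3661 bp in XX progenitor and 2973 bp in pregranulosa cells. Fzd5 and Fzd9 shared their pattern across the 8 lists with each other and were among 327 background genes (1.53%) that had it.

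Fzd10 (chr5:129106719-129109968, plus strand) had H3K27me3 over its whole window and 100% of its gene body in all 4 populations. The regions were the widest of the family in 3 of the 4, at 14648 bp in XY progenitor, 13966 bp in XX progenitor, 21748 bp in Sertoli and 20406 bp in pregranulosa cells. Between 76.7% and 82.0% of marked background promoters had narrower regions in the same list. The rank within the family rests on how peaks are joined. With peaks within 5 kb joined, Fzd7 was wider than Fzd10 in Sertoli cells, at 36286 against 33717 bp. In pregranulosa cells Fzd10 was then the wider, at 32548 against 27159 bp. The H3K4me3 region was 3570, 4804, 4148 and 4314 bp wide and covered 43.5% to 65.2% of the gene body. In each list it lay entirely inside the H3K27me3 region.

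Fzd3 and Fzd6 act mainly in planar cell polarity, in axon guidance and hair patterning, and span longer genes of several exons. H3K27me3 was called at 2, 2, 1 and 1 of the 2 promoters. At Fzd3 (chr14:65819863-65881300, minus strand) it covered 3542 bp of the window in XY progenitor and 3017 bp in XX progenitor cells, and 0 bp in Sertoli and pregranulosa cells, where the nearest regions were 138252 and 141355 bp away. Both calls were 1 listed peak of 5001 bp, placed mostly upstream of the TSS, from 3459 and 3984 bp before it to 1541 and 1016 bp after it. The divergent gene Fbxo16 starts 4238 bp from Fzd3 and was called in the same 2 lists, since the same peaks reach into its window. Fzd3 was the only member with H3K27me3 in both progenitors and in neither E13.5 population, a pattern of 445 background genes (2.08%).

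Fzd6 (chr15:38837879-38869732, plus strand) had H3K27me3 over its whole window in all 4 populations, like Fzd10, but in narrower regions of 6265, 6252, 6263 and 9009 bp. Of the 31854 bp gene body they covered 10.6%, 11.8%, 9.96% and 13.6%. H3K4me3 at Fzd6 was the narrowest of the family in each list, at 2318, 2645, 2225 and 1912 bp, and lay inside the H3K27me3 region. The pattern that Fzd6 and Fzd10 share, both marks in all populations, was the commonest of any member, with 2997 background genes (14.0%).

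**Figure D3:**
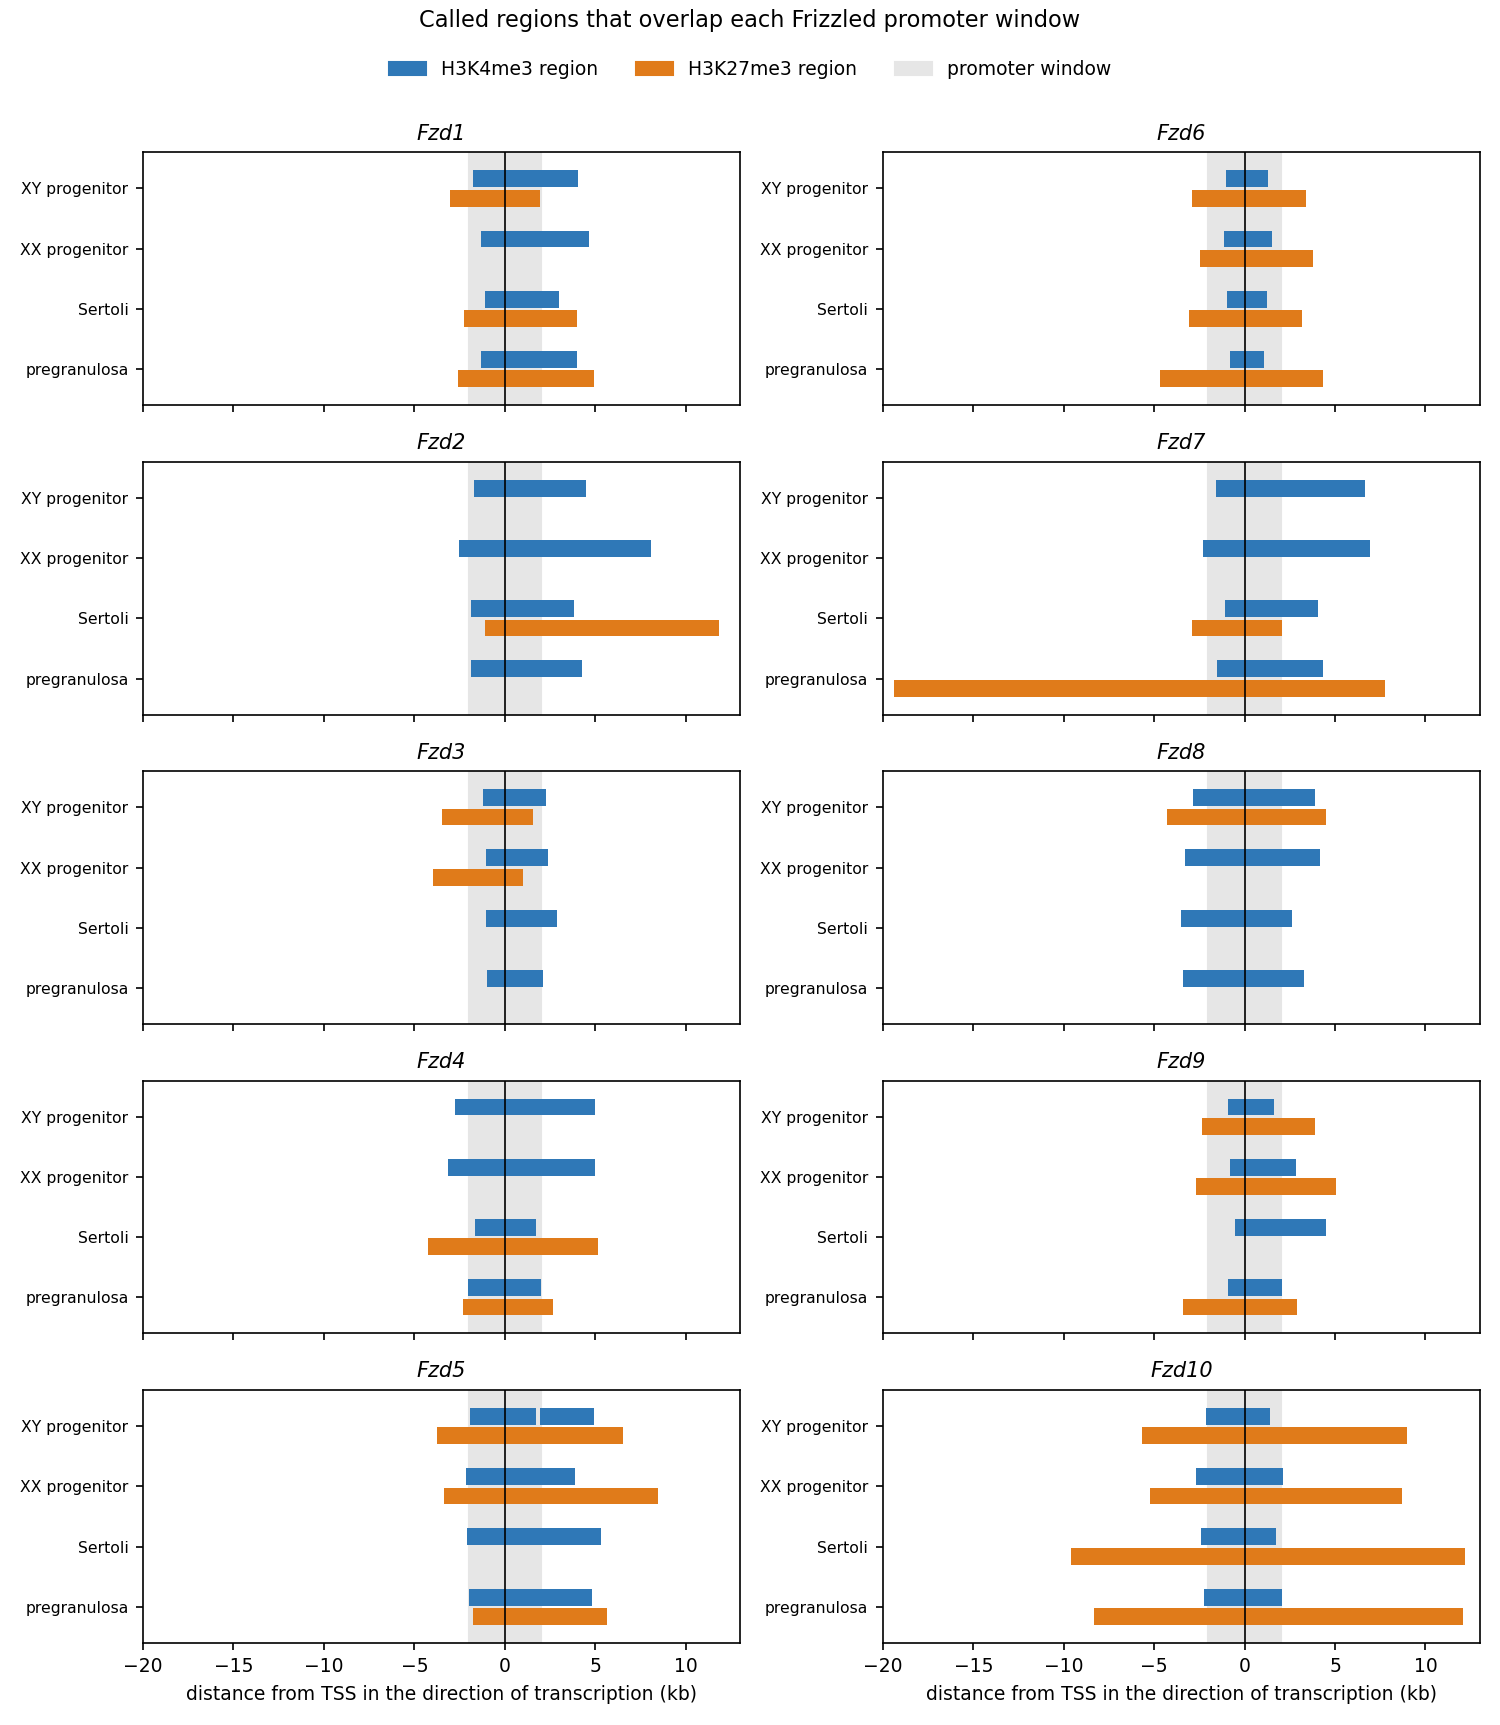
Called regions that overlap each promoter window, drawn to scale as distance from the TSS in the direction of transcription (x axis, kb) for the 4 populations (rows of each panel), with H3K4me3 in blue, H3K27me3 in orange and the window shaded. The pregranulosa region of Fzd7 extends 19402 bp upstream, and at Fzd10 the H3K27me3 regions extend beyond H3K4me3 on both sides.

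Over the whole family, 25 promoter calls of H3K27me3 were made in the 4 lists. A single listed peak of 5001 bp, the size set for the peak caller, gave 5 of them, namely Fzd1 and Fzd3 in XY progenitor, Fzd3 in XX progenitor, Fzd7 in Sertoli and Fzd4 in pregranulosa cells. Of marked background promoters, 22.0%, 16.1%, 8.37% and 8.79% had a region of that width in the same order of lists. H3K27me3 regions over the members had median widths of 6265, 7789, 7836.5 and 7518 bp, each below the background medians of 8045.5, 8903.5, 11602.5 and 10386 bp. Keeping only the widest 75% of regions in each list ended the call at Fzd1 and Fzd6 in Sertoli cells, at Fzd6 in XX progenitor cells, and at all 5 single-peak calls but Fzd3 in XY progenitor cells. The counts were then 6, 3, 3 and 6, against 20%, 18.2%, 21.0% and 18.7% of the background, and 27.3%, 25.0%, 25.5% and 24.5% of the genes with H3K4me3 in all 4 populations. In XX progenitor and Sertoli cells the members were then near the second of these backgrounds. Fzd1 and Fzd3 had equal widths in the XY progenitor list, where the limit fell within regions of 5001 bp that were ordered by chromosome.

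H3K4me3 regions over the members were wide for their lists. The median widths were 4717.5 bp in XY progenitor, 5991 bp in XX progenitor, 4601.5 bp in Sertoli and 4826 bp in pregranulosa cells, against 2240, 2992, 2643.5 and 2939 bp at marked background promoters. In XY progenitor cells 10 of 10 members lay above the background median and in the other lists 9 of 10, with Fzd6 below it. Fzd7, at 8257 bp in XY progenitor cells, was wider than 99.5% of background promoters, and Fzd2, at 10621 bp in XX progenitor cells, wider than 99.3%.

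Between the stages, the median ratio of H3K4me3 width in Sertoli over XY progenitor cells was 0.94 for the members, 6 of 10 of which lay below 1, and 1.17 for 13432 background promoters, 27.7% of which lay below 1. For pregranulosa over XX progenitor cells the medians were 0.85 and 0.99, with 9 of 10 members and 52.3% of the background below 1. The 6 members with H3K27me3 in Sertoli cells had Sertoli ratios of 0.44 (Fzd4), 0.63 (Fzd7), 0.71 (Fzd1), 0.92 (Fzd2), 0.96 (Fzd6) and 1.16 (Fzd10). The other 4, which had the mark in XY progenitor and not in Sertoli cells, had ratios of 0.91 (Fzd8), 1.12 (Fzd3), 2.02 (Fzd9) and 2.03 (Fzd5), so the groups overlapped. With peaks within 1 kb joined, Fzd5 fell to 1.08 and Fzd9 stayed at 2.02, with medians of 0.94 for the members and 1.16 for the background. The H3K4me3 lists had 10162534 tags in XY progenitor and 31104760 in Sertoli cells, and the part of depth in these ratios was not tested.

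**Figure D4:**
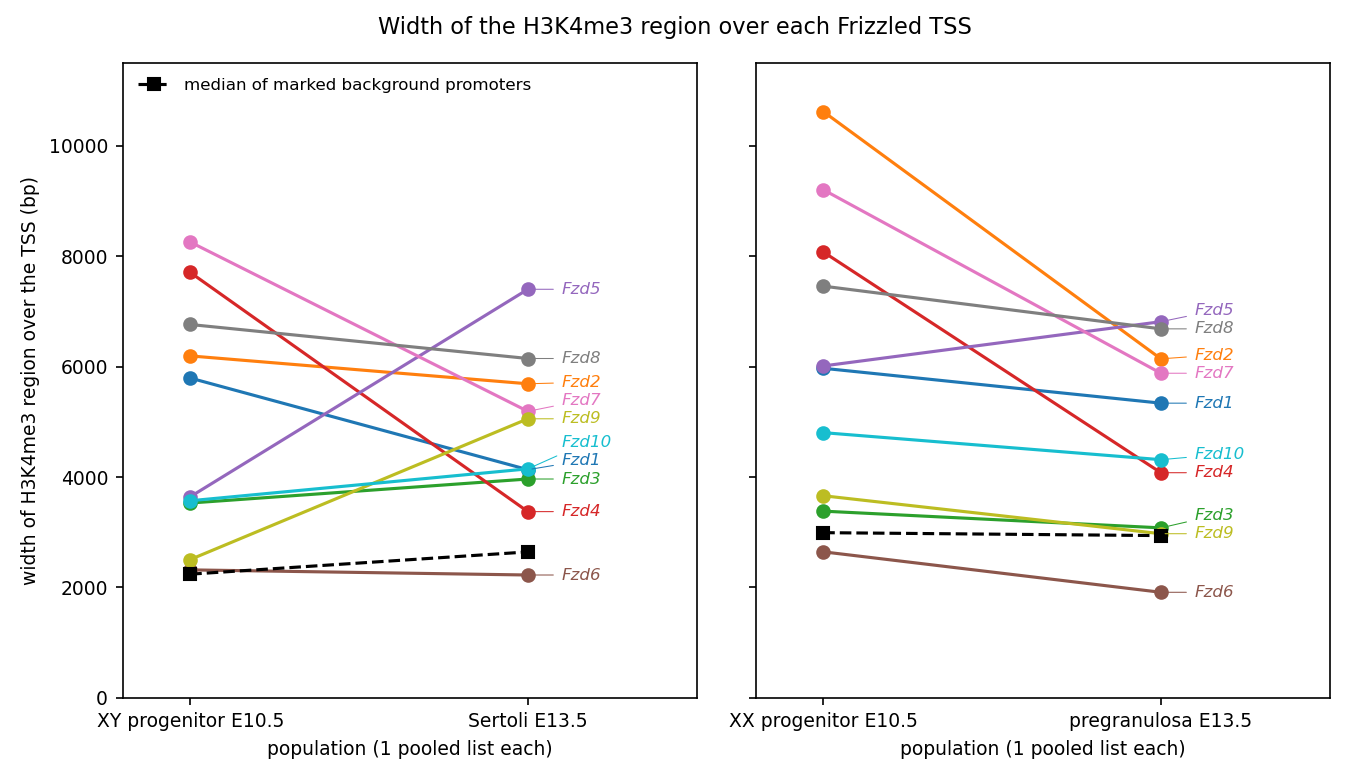
Width of the H3K4me3 region over each Frizzled TSS (y axis, bp) in progenitor and E13.5 populations (x axis), on the XY side at left and the XX side at right, with the median of marked background promoters as a dashed line. Fzd4 and Fzd7 are narrower at E13.5 on both sides, and Fzd5 and Fzd9 are wider in Sertoli than in XY progenitor cells, which at Fzd5 rests on a gap between listed peaks (ratio 2.03, and 1.08 with peaks within 1 kb joined). At Fzd7 the ratio of pregranulosa over XX progenitor cells is 0.64, and 0.85 with peaks within 1 kb joined.

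**Figure D5:**
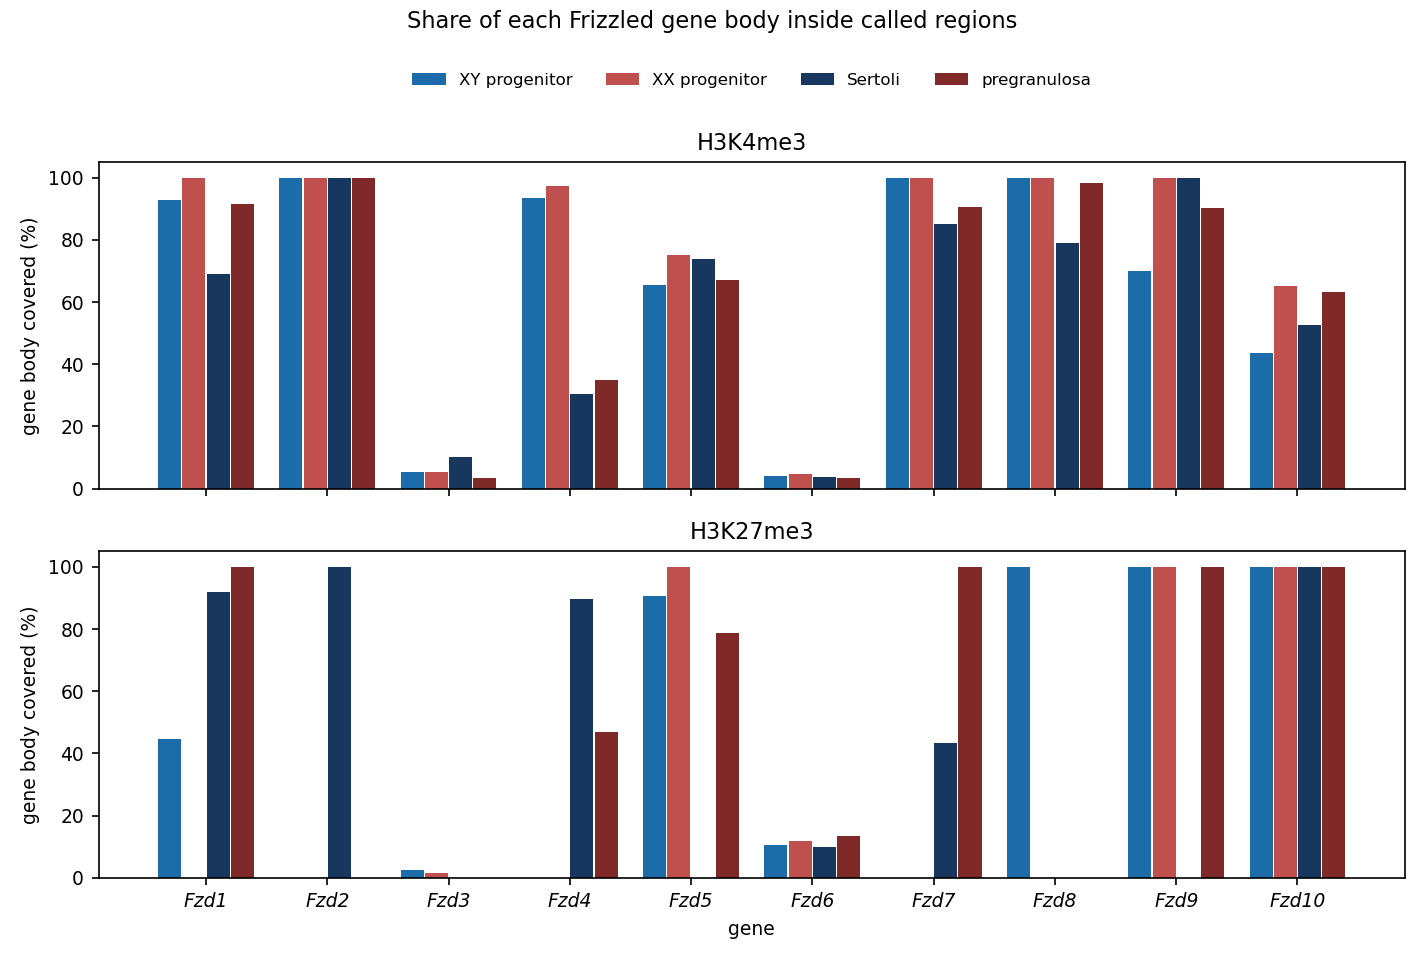
Percent of each Frizzled gene body inside called regions (y axis) for the 10 genes (x axis) in the 4 populations (bar colours), with H3K4me3 above and H3K27me3 below. The long genes Fzd3 and Fzd6 have low cover by both marks, at most 10.3% and 13.6%, and Fzd10 is covered fully by H3K27me3 in all populations.

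The proteins with which Frizzled receptors work were read in the same way. Of 32 pathway genes, 31 had H3K4me3 in every list, and H3K27me3 was called at 13, 14, 15 and 14 promoters in XY progenitor, XX progenitor, Sertoli and pregranulosa cells. In all 4 lists it was called at 11, against 16.3% of the background, and in none at 15, against 68.8%. None of the 9 genes of the cytoplasmic relay, which include Dvl1, Axin1 and Gsk3b, had it in any list, whereas all 5 genes of secreted proteins with a Frizzled-type domain, Sfrp1, Sfrp2, Frzb, Sfrp4 and Sfrp5, had it in all 4. The call varied between populations at 6 of the 32 pathway genes, at 8 of the 10 receptors and at 14.9% of the background. A call can vary only where the mark was called in at least 1 list, which held for all 10 receptors. It did not hold for 15 of the pathway genes and for 68.8% of the background. Of the 6689 background genes called at least once, 3190 varied. Ctnnb1, which encodes beta-catenin, had neither mark over its annotated window. That window lies at the outermost 5′ end of the gene, and other transcript starts were not checked for the pathway genes. It therefore does not show that the promoter in use lacks H3K4me3.

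Among the 6 pathway genes that varied, Ror1, a Wnt receptor kinase, and Prickle2, a planar polarity protein, had H3K27me3 over the whole window in both E13.5 populations and 0 bp in both progenitors, as Fzd4 and Fzd7 did. Znrf3, a membrane ligase that removes Frizzled proteins from the cell surface, had 2624 bp in XY progenitor, 2800 bp in XX progenitor and 0 bp in Sertoli cells, and the whole window in pregranulosa cells. Its calls were those of Fzd5 and Fzd9. Vangl2, a core planar polarity protein, had the mark in Sertoli cells alone, as Fzd2 did. Celsr1, another core planar polarity gene, had its whole window under H3K27me3 in XY progenitor cells, 3957 bp in XX progenitor, 1751 bp in Sertoli and 0 bp in pregranulosa cells. Tspan12, which supports Norrin signalling through Fzd4, had 269 bp in XX progenitor cells and 0 bp in the others.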

How the data were processed

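XY and XX progenitor, Sertoli and pregranulosa cells were profiled by native MNase ChIP-seq for H3, H3K4me3 and H3K27me3. Per the labels and the study's methods, the authors trimmed reads with Trim Galore and aligned them to mm9 with Bowtie, and SAMtools is also named. Peaks were called with HOMER findPeaks in histone style against H3. The headers of 6 lists give a peak size of 1000 bp for H3K4me3 and 5000 bp for H3K27me3, 4-fold enrichment over input and over the local region, a Poisson p-value of 0.0001 over input and joined replicates. The 2 pregranulosa lists have no header, and their pooling is taken from the series description. The deposited positions are 0-based starts and ends, and the deposited score column, held by the 6 lists with a header, is 1 for every peak and was not used.

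Overlapping peaks of a list were joined into regions. A promoter was TSS ± 2 kb in GENCODE M1, taken from the outermost 5′ end of the gene, and 1 bp of overlap with a region was enough for a call. Gene body cover is the percent of bases between gene start and end inside regions. Background shares carry exact (Clopper-Pearson) 95% intervals, which cover counting error only. A width is that of the widest region over the window, which at the members was the one over the TSS. CpG ratio and GC were computed on the window, and motifs on 250 upstream bases, from NCBIM37, whose chromosome lengths hold all peaks.

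All 10 members are named with their values. Of 32 pathway genes, those whose H3K27me3 call differs between populations were named, at most 6. A second list held 32 cell type markers. Members and lists were chosen with earlier results of these data known. With 1 pooled list per condition, populations were compared side by side without a test. The alternatives are given at the end. Interval steps were tested on simulated data. The tools were bedtools 2.31.1, Python 3.11.15 and its packages SciPy 1.17.1, NumPy 2.4.6 and matplotlib 3.10.9. H3 libraries, expression and ChIP-qPCR values were not analysed here, and no sequence of Fzd8 or Fzd2 is reported here.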

Additional observations from a re-analysis of the deposited data

Results flagged for a closer look

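Some values moved in opposite directions from XY progenitor to Sertoli cells and from XX progenitor to pregranulosa cells. Each side rests on 1 pooled list per population, and the difference between the sides was not tested. The number of Frizzled promoters with H3K27me3, and equally with both marks, went from 7 to 6 on the XY side, a difference of -1, and from 5 to 7 on the XX side, a difference of 2. Gene body cover by H3K4me3 differed by 4.88 percentage points on the XY side and -2.08 on the XX side at Fzd3, by 8.41 and -8.36 at Fzd5, by 29.9 and -9.55 at Fzd9, and by 9.20 and -1.94 at Fzd10. For Fzd9 this is a cover of 70.1% in XY progenitor and 100% in Sertoli cells, against 100% and 90.4% on the XX side. At Fzd10 the difference on the XX side rests on how peaks are joined. With peaks within 5 kb joined, H3K4me3 covered 100% of its gene body in both XX progenitor and pregranulosa cells. Gene body cover by H3K27me3 at Fzd6 differed by -0.644 and 1.79 percentage points. In all 4 genes with such a difference in H3K4me3 the XY progenitor cover was below that in XX progenitor cells, and the XY progenitor list was called from 10162534 tags against 49254553. The part of depth was not tested.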

How the results depend on the processing

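No paired analysis was possible because each list pools both replicates and no test was made, and for the same reason leaving out a replicate was not possible. Of 96 counts of Frizzled promoters recomputed under 8 alternatives, 90 stayed within 1.5 times the reported count, and all 32 H3K4me3 counts were equal to it. With the widest 75% of regions, promoters with H3K27me3 numbered 3 in XX progenitor cells and 3 in Sertoli cells, and so did those with both marks. With equal numbers of the widest regions per list (9309 for H3K27me3), both counts were 3 in Sertoli cells, without Fzd1, Fzd6 and Fzd7, and Fzd4 and Fzd9 were not called in pregranulosa cells. Both settings remove narrow regions by construction. An overlap of 500 bp, TSS ± 1 kb, the TSS base itself, joining peaks within 1 kb or 5 kb, and windows at every transcript start left all calls as they were.

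Background shares depended on the genes counted. Over all 37310 genes, H3K4me3 was at 46.8%, 48.9%, 47.9% and 49.2% in XY progenitor, XX progenitor, Sertoli and pregranulosa cells, and H3K27me3 at 17.9%, 20.7%, 19.1% and 19.9%. Over 3632 genes with coding sequence in 1 exon, as in 7 members, the shares were 30.2%, 31.1%, 30.4% and 31.6%, and 15.3%, 14.4%, 15.9% and 14.3%. Over the 13381 genes with H3K4me3 in all populations, a background chosen after seeing the data, H3K27me3 was at 32.1%, 31.6%, 29.4% and 28.8%. The member counts as reported lay above each of these. With the widest 75% of regions, chosen for the background after seeing the data, H3K4me3 was at 62.5%, 65.2%, 63.5% and 65.4% of background promoters and H3K27me3 at 20%, 18.2%, 21.0% and 18.7%. With equal numbers of regions, H3K4me3 was at 66.0% in pregranulosa cells, and H3K27me3 at 20.3% in Sertoli and 18.5% in pregranulosa cells. Under these settings the Sertoli count of 3 in 10 stood against 25.5% and 24.8% of genes with H3K4me3 in all populations. Joining H3K4me3 peaks, also chosen after seeing the data, changed the ratio at Fzd5 for Sertoli over XY progenitor cells from 2.03 to 1.08 within 1 kb and within 5 kb, and for pregranulosa over XX progenitor cells from 1.13 to 0.83. Joining within 5 kb also changed the former ratio at Fzd1 from 0.71 to 0.36, at Fzd2 from 0.92 to 0.65, at Fzd7 from 0.63 to 0.88 and at Fzd8 from 0.91 to 0.51, and the latter at Fzd2 from 0.58 to 0.97, at Fzd4 from 0.50 to 0.15 and at Fzd9 from 0.81 to 0.18. At Fzd7 the latter ratio changed from 0.64 to 0.85, both within 1 kb and within 5 kb. With peaks within 5 kb joined, the member medians were 0.92 and 0.87, against 1.14 and 1 in the background. Of 40 gene body covers per mark, joining within 5 kb raised 8 for H3K4me3 and 1 for H3K27me3 by over 1 percentage point, and keeping the widest 75% lowered 2 and 7.

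Depth differed several-fold between lists and was unknown for pregranulosa cells, and H3K27me3 edges are no finer than the 5000 bp peak size. A call that is absent means that the mark was not called at this depth, not that it is absent.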
